A study of Homo sapiens with 48 samples.

Results

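The genes described here are 10 members of the stress-activated MAP kinase cascades: the MAP3K genes MAP3K5 and MAP3K4, the MAP2K genes MAP2K3, MAP2K6, MAP2K4 and MAP2K7, the kinases MAPK14, MAPK8 and MAPK9, and MAPKAPK2. They were chosen by symbol, as the rows of the count tables whose Ensembl identifier maps to one of these names, and all 10 were found among the 14685 genes in the tables. The cells were HEK293T, a human embryonic kidney line, transfected with a plasmid for NCBP1 fused to Halo, and every group carries this plasmid. NCBP1 is the larger of the proteins that form the cap-binding complex of the nucleus, and Halo is a protein tag that binds a photocaged precursor of the lipid-derived electrophile HNE (Ht-PreHNE). In the T-REX arm, light released HNE next to NCBP1 in cells that had taken up the precursor. There were 3 controls, called DMSO, probe alone and light alone here. As the study's methods list its T-REX controls, light alone had the precursor and light, probe alone had the precursor without light, and DMSO had neither. As listed, light alone does not differ from T-REX in precursor or light. In the sample labels, T-REX is named reaction, light alone control UV and probe alone control Pre. These names do not state whether the light alone cells had the precursor, and no source used here says how light alone and T-REX differ in these libraries. RNA was taken 3, 6 and 12 h after the reaction or control from 4 independent replicates of each arm, which gave 48 libraries.

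In these cascades, a MAP3K phosphorylates a MAP2K, which phosphorylates a MAP kinase. MKK3 and MKK6, the products of MAP2K3 and MAP2K6, act on the p38 kinases. MKK7, from MAP2K7, acts on the JNK kinases, and MKK4, from MAP2K4, acts on both. ASK1, from MAP3K5, is a MAP3K held inactive by reduced thioredoxin, and oxidants and electrophiles are known to activate it. The cascades signal through phosphorylation, which RNA counts do not measure, so what follows concerns transcript levels.

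The total counts lay between 23952455 and 37099535 per library (median 29405598.5). Of 6 markers set for HEK293T, 5 were in the tables, and PAX2 had no row. IRS4 was at 366.5 to 727.3 CPM (counts scaled to a common library size of 1e6) and VIM at 436.9 to 667.9 CPM. The others were lower: NEFM at 22.2 to 46.4 CPM, KRT18 at 7.14 to 13.4 CPM and KRT8 at 4.39 to 10.4 CPM. Of 10 markers of blood, liver, fibroblasts and keratinocytes, only COL1A1 had a row (2.13 to 6.07 CPM). At 3 h, 4 libraries stood apart on the first principal component, which held 35.3% of the variance: T-REX libraries 3 and 4 and light alone libraries 2 and 3, with scores of 0.345 to 0.450 against at most 0.146 in the other 12. T-REX library 1 lay at the other end (-0.412, against -0.225 or more in the rest). Light alone library 3 (score 0.708) and DMSO library 3 (score -0.530) at 6 h, and DMSO library 3 at 12 h (score 0.861), also stood apart. Calls that ended when these libraries were left out are named as such.

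Of the 10 transcripts, MAP2K6 differed between T-REX and the controls, and the other 9 passed the test in no comparison. MAP2K6 was lower under T-REX in 8 of 9 comparisons, by between 22.5% and 34.7%. The exception was light alone at 3 h, where MAP2K6 in the control was itself close to the T-REX level. A gene was called at an adjusted p of at most 0.05 (edgeR's quasi-likelihood test, Benjamini-Hochberg adjusted across the 14685 genes). MAP2K6 was named by the study from a screen of these same libraries, so its calls are not independent evidence of its direction.

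MAP2K6 (ENSG00000108984) is the gene for MKK6. At 3 h, its level in the 4 T-REX libraries was 28.9, 26.8, 27.5 and 27.6 CPM. Light alone gave 26.8, 27.9, 33.4 and 33.8 CPM. Probe alone gave 40.2, 41.6, 38.5 and 44.1 CPM, and DMSO gave 38.71, 39.05, 37.02 and 38.54 CPM. Every T-REX library lay below every library of probe alone and of DMSO, while T-REX and light alone overlapped. The T-REX libraries that stood apart on the first component had MAP2K6 levels within the range of the other 2. The fitted log2 fold change was -0.55 ± 0.07 (SE) against probe alone, a drop of 31.9% (adjusted p = 0.00097, edgeR's quasi-likelihood test). Against DMSO it was -0.47 ± 0.07 (adjusted p = 0.00132). Against light alone it was -0.14 ± 0.07 with a 95% interval of -0.29 to 0.01 (adjusted p = 0.396). Of the 10 genes, 0, 1 and 1 thus passed against the respective controls light alone, probe alone and DMSO, beside 0.197%, 1.05% and 5.99% of all genes. Without the 4 libraries that stood apart, the 3 values for MAP2K6 were -0.12, -0.55 and -0.46, with the same 2 calls (adjusted p = 0.00140 and 0.00379 in edgeR's quasi-likelihood test).

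At 6 h, MAP2K6 in the T-REX libraries was 36.8, 41.6, 41.5 and 34.8 CPM. Light alone gave 52.8, 60.6, 66.9 and 50.3 CPM. Probe alone gave 50.84, 59.25, 54.52 and 50.004 CPM, and DMSO gave 51.5, 48.4, 48.1 and 51.6 CPM. The T-REX libraries were the lowest 4 of the 16, with no overlap with any control. The log2 fold change was -0.58 ± 0.08 (SE) against light alone (adjusted p = 0.000785, edgeR's quasi-likelihood test). It was -0.47 ± 0.08 for the probe alone control (adjusted p = 0.0151) and -0.37 ± 0.08 for the DMSO control (adjusted p = 0.0490) in the same fit by edgeR. One of the 10 genes, MAP2K6, was called in each of these comparisons, beside 0.218%, 0.109% and 0.415% of all genes. The call against DMSO was at the edge of the threshold: it was lost when any 1 of 14 of the 16 libraries was left out, with values of -0.41 to -0.32. Without DMSO library 3, which stood apart, it was -0.39 (adjusted p = 0.0965, edgeR's quasi-likelihood test). The call against probe alone was lost without probe alone library 2 (-0.42, adjusted p = 0.0845), T-REX library 1 (-0.45, adjusted p = 0.0717) or T-REX library 4 (-0.42, adjusted p = 0.106, edgeR's quasi-likelihood test). The call against light alone was kept whichever library was left out.

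At 12 h, MAP2K6 in the T-REX libraries was 33.27, 38.02, 34.91 and 30.78 CPM. Light alone gave 55.0, 53.1, 52.0 and 49.7 CPM. Probe alone gave 48.01, 53.71, 49.25 and 41.35 CPM, and DMSO gave 47.8, 54.2, 55.0 and 48.3 CPM. The T-REX libraries were again the lowest 4 of the 16. The log2 fold change was -0.61 ± 0.08 (SE) against light alone, a drop of 34.7% (adjusted p = 9.79e-05, edgeR's quasi-likelihood test). It was -0.49 ± 0.08 for the probe alone control (adjusted p = 0.00155) and -0.59 ± 0.08 for the DMSO control (adjusted p = 5.95e-05) in the same fit by edgeR. MAP2K6 was the 1 gene of the 10 called in each, beside 1.29%, 0.701% and 10.9% of all genes. These 3 calls were kept in all 16 fits that each left out 1 library, DMSO library 3 among them.

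**Figure D1:**
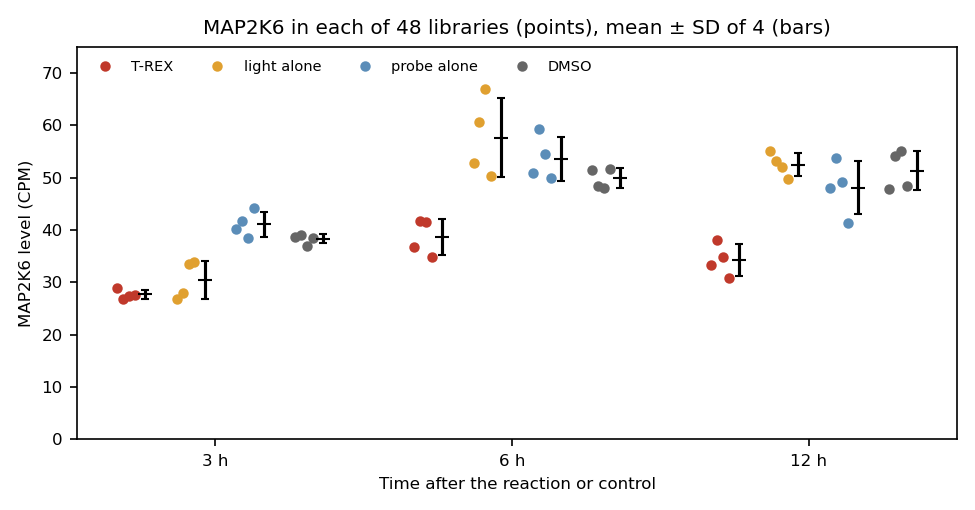
MAP2K6 level in CPM (y axis, from 0) in each library by time and arm; points are libraries and bars the mean ± SD of 4. At 6 and 12 h the 4 T-REX points lie below all 12 control points, whereas at 3 h the light alone points (26.8 to 33.8 CPM) overlap with T-REX (26.8 to 28.9 CPM).

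The controls were compared with one another in the same fits. At 3 h, light alone had less MAP2K6 than probe alone (a log2 fold change of -0.41 ± 0.07 SE, adjusted p = 0.0184, edgeR's quasi-likelihood test), and this was the only call among the 10 genes in the 9 comparisons of controls. It was lost without probe alone library 1 or 3 or light alone library 1 or 2, and without the 4 libraries that stood apart together (-0.44, adjusted p = 0.0661 in edgeR's quasi-likelihood test). Against DMSO at 3 h, light alone gave -0.33 ± 0.07 (adjusted p = 0.208, edgeR's quasi-likelihood test). At 6 h the same comparison gave 0.21 ± 0.08 (adjusted p = 0.25) and at 12 h 0.03 ± 0.08 (adjusted p = 0.926, edgeR's quasi-likelihood test), so MAP2K6 with light alone was near the T-REX level at 3 h and near the other controls at 12 h. Probe alone against DMSO gave values between -0.09 and 0.10 at the 3 times. Of all genes, 0.00681%, 0.00681% and 0.232% were called at 3 h for light alone against DMSO, probe alone against DMSO and light alone against probe alone. The same shares were 0.00681%, 0.0272% and 0.0613% at 6 h, and 0.0136%, 5.11% and 0.415% at 12 h.

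Whether the T-REX difference in MAP2K6 changed with time was tested by itself, in 1 fit of all 48 libraries. Relative to the mean of the 3 controls, the log2 difference moved by -0.08 ± 0.09 (SE) from 3 to 6 h, by -0.17 ± 0.09 from 3 to 12 h (adjusted p = 0.516, edgeR's quasi-likelihood test) and by -0.09 ± 0.09 from 6 to 12 h. None of the 10 genes was called (edgeR's quasi-likelihood test), and none had an unadjusted p of at most 0.05, beside 0.0%, 0.116% and 0.0% of all genes called. With light alone as the control, chosen after the values above were seen, the MAP2K6 difference moved by -0.44 ± 0.12 from 3 to 6 h (adjusted p = 0.681) and by -0.48 ± 0.12 from 3 to 12 h (adjusted p = 0.0990, edgeR's quasi-likelihood test), and by -0.04 ± 0.11 from 6 to 12 h. For MAP2K6 the unadjusted p was 0.00042 from 3 to 6 h and 0.00014 from 3 to 12 h (edgeR's quasi-likelihood test). None of these changes was called, beside 0.0%, 0.0204% and 0.0% of all genes in the order 6 against 3 h, 12 against 3 h and 12 against 6 h.

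The plasmid's NCBP1 took up to 92201 CPM of a library, and its counts include the endogenous gene. It moved with the arms. At 12 h its mean was 57501 CPM under T-REX, 40520 CPM in light alone, 59151 CPM in probe alone and 34642 CPM in DMSO (n = 4 each). The same means at 3 h were 75865, 61370, 64587 and 53847 CPM, and at 6 h 72832, 41696, 82943 and 53742 CPM. At 6 and 12 h, probe alone had more NCBP1 than T-REX in the mean, and its MAP2K6 means (53.7 and 48.1 CPM) were above the T-REX means (38.7 and 34.2 CPM). T-REX had more NCBP1 in the mean than light alone and DMSO at 3, 6 and 12 h, and more than probe alone at 3 h. In each of these cases its MAP2K6 mean was the lower one. Whether the NCBP1 level bears on the MAP2K6 values was not tested. In bulk RNA, a lower level per cell and fewer cells with the transcript cannot be told apart.

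MAP2K3 (ENSG00000034152), the gene for MKK3, acts on p38 as MKK6 does, and its log2 fold changes under T-REX lay between -0.15 and 0.10 in the 9 comparisons (smallest adjusted p = 0.680, edgeR's quasi-likelihood test). The ratio of MAP2K6 to MAP2K3 counts within a library does not depend on scaling between libraries. At 6 h, the log2 ratio in the T-REX libraries was 1.74, 1.45, 1.48 and 1.25. It was 2.11, 2.03, 2.75 and 1.76 with light alone, 2.285, 1.795, 1.979 and 2.001 with probe alone and 1.82, 1.93, 1.67 and 1.90 with DMSO. T-REX thus lay below light alone and probe alone without overlap, and overlapped with DMSO by 1 library. The mean differences were -0.68, -0.54 and -0.35. An exact two-sided permutation test gave p = 0.0286 for the first and the second, the smallest p that 4 against 4 libraries allow, and p = 0.0571 for the third. At 12 h the differences were -0.58 against light alone (exact permutation p = 0.0286), -0.38 against probe alone (p = 0.0571) and -0.54 against DMSO (p = 0.114). At 3 h they were -0.025 against light alone (exact permutation p = 0.943), -0.34 against probe alone (p = 0.314) and -0.40 against DMSO (p = 0.229). Adjusted over the 9 comparisons by the Benjamini-Hochberg method, no exact permutation p was under 0.0857.

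**Figure D2:**
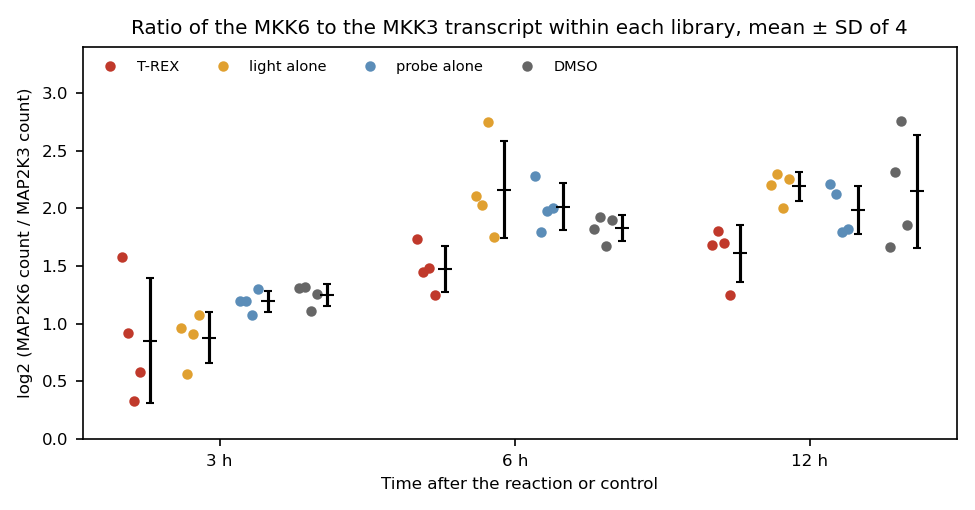
log2 ratio of the MAP2K6 count to the MAP2K3 count within each library (y axis), by time and arm; points are libraries and bars the mean ± SD of 4. T-REX has the lowest mean at each time, at 3 h by little (0.853 against 0.878 with light alone). At 3 h its 4 libraries spread from 0.33 to 1.58 while those of probe alone and DMSO lie between 1.07 and 1.31.

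At 3 h the ratio was 1.58, 0.92, 0.33 and 0.58 in the T-REX libraries, a wider spread than in the 3 controls. It came from MAP2K3, which was at 9.65, 14.2, 21.9 and 18.4 CPM in T-REX libraries 1 to 4, while MAP2K6 stayed between 26.8 and 28.9 CPM. MAP2K3 was at 13.7, 18.9, 17.7 and 16.1 CPM with light alone, 17.5 to 18.3 CPM with probe alone and 15.6 to 17.1 CPM with DMSO. The 2 higher T-REX values and the 2 higher light alone values belong to the 4 libraries that stood apart. Without these 4, MAP2K3 was called lower under T-REX than with probe alone (-0.58 ± 0.13 SE, adjusted p = 0.0126) and DMSO (-0.44 ± 0.13, adjusted p = 0.0365, edgeR's quasi-likelihood test), from the 2 T-REX libraries at 9.65 and 14.2 CPM, of which the lower is the one at the other end of the component. Without that library alone, the values were 0.03 and 0.18, and neither was called. With all libraries the same comparisons gave -0.15 (adjusted p = 0.680) and -0.0038 (adjusted p = 0.993, edgeR's quasi-likelihood test). MAP2K3 had 215 to 621 counts per library, and its log2 fold changes had SEs of 0.14 to 0.18, against 0.07 to 0.08 for MAP2K6.

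MAP2K7 (ENSG00000076984), the gene for MKK7, varied with the same libraries. At 3 h it was at 12.23, 15.05, 28.23 and 23.90 CPM in the T-REX libraries and at 15.80, 28.16, 24.46 and 14.96 CPM with light alone. Probe alone gave 13.2 to 15.9 CPM and DMSO 12.1 to 20.1 CPM. The 4 high values are those of the libraries that stood apart, 2 in each arm. The log2 fold change of T-REX was 0.48 against probe alone and 0.38 against DMSO, with neither called, and without the 4 libraries it was -0.07 and -0.16. With the authors' 2 factors of unwanted variation as covariates, MAP2K7 was called higher in both (0.42 with adjusted p = 0.000331 and 0.35 with adjusted p = 0.00185, edgeR's quasi-likelihood test). That fit called 17.4% and 20.8% of all genes in these comparisons. At 6 h the value against DMSO was -0.41 ± 0.15 (95% interval -0.73 to -0.09, adjusted p = 0.258, edgeR's quasi-likelihood test), where DMSO libraries 1 and 3 were at 23.65 and 25.02 CPM and the other DMSO libraries at 16.5 and 15.5 CPM. Light alone against DMSO at 6 h gave the like value of -0.39. Without DMSO library 3 the T-REX value was -0.29. With the factors as covariates the T-REX value was called (-0.40, adjusted p = 0.00547, edgeR's quasi-likelihood test), beside 7.14% of all genes.

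**Figure D3:**
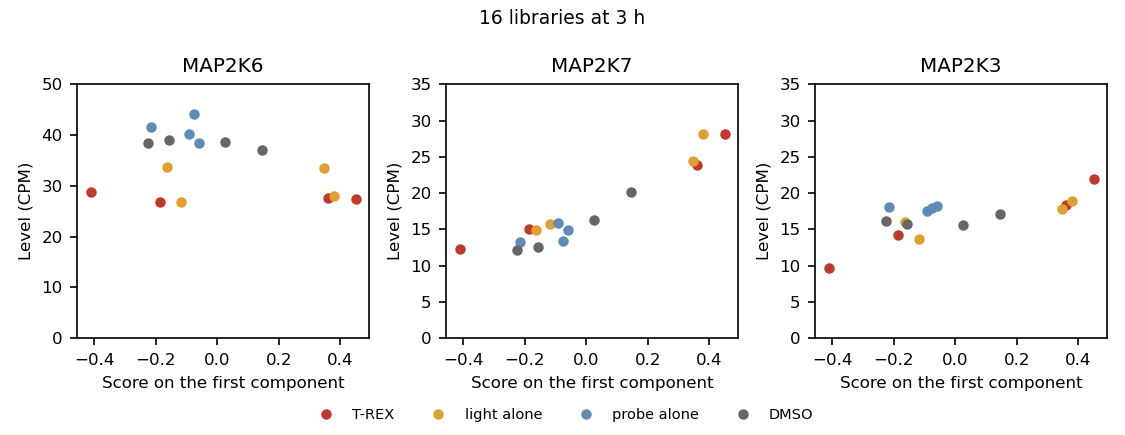
Level of MAP2K6, MAP2K7 and MAP2K3 in CPM (y axes, from 0) in the 16 libraries at 3 h, against each library's score on the first principal component of all genes (x axis); colours are arms. The 4 libraries with scores of 0.345 to 0.450 have the 4 highest MAP2K7 levels (23.9 to 28.2 CPM), while MAP2K6 in them is within the range of the rest.

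MAP2K4 (ENSG00000065559), the gene for MKK4, was the most even of the MAP2K genes. Its mean per group lay between 101.0 and 122.1 CPM, and its log2 fold changes under T-REX between -0.07 and 0.08. The 95% intervals of all 9 lay within -0.19 and 0.19 (smallest adjusted p = 0.506, edgeR's quasi-likelihood test). Of the 4 MAP2K genes that feed p38 and JNK, MAP2K6 alone was called.

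Among the MAP3K genes, MAP3K5 (ENSG00000197442) had 7 of 9 log2 fold changes below 0. At 3 h it was at 12.7, 12.4, 12.2 and 14.5 CPM under T-REX and at 14.7, 17.3, 13.7 and 15.7 CPM with DMSO, with an overlap of T-REX library 4 only. The fold change of -0.24 ± 0.09 (SE) had an unadjusted p of 0.0189 and was not called (adjusted p = 0.137, edgeR's quasi-likelihood test). With the factors as covariates it was called at the same size (-0.24, adjusted p = 0.0445, edgeR's quasi-likelihood test), beside 20.8% of all genes. Light alone lay at 12.4 to 14.9 CPM and probe alone at 13.55 to 15.45 CPM. MAP3K4 (ENSG00000085511), the gene for MEKK4, a MAP3K upstream of p38 and JNK, had values between -0.01 and 0.12. The highest was against DMSO at 12 h (adjusted p = 0.144, edgeR's quasi-likelihood test), where probe alone against DMSO gave 0.13. With the factors as covariates it was called (0.12, adjusted p = 0.0340, edgeR's quasi-likelihood test), beside 26.7% of all genes. An antisense gene, MAP3K4-AS1, has its own row with a median of 3.97 CPM beside 84.8 CPM of MAP3K4. The libraries were stranded, but whether the counting used the strand is not stated.

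MAPK14 (ENSG00000112062), the gene for p38 alpha, the main substrate of MKK6 and MKK3, had 9 of 9 log2 fold changes below 0 under T-REX, from -0.15 to -0.01, and none was called. At 6 h the T-REX libraries were at 111.1, 114.6, 112.4 and 108.7 CPM. Light alone gave 121.4, 120.7, 123.3 and 125.3 CPM, and probe alone 123.1, 118.3, 125.0 and 125.2 CPM. T-REX lay below both without overlap, and DMSO library 3, at 104.5 CPM and one of the libraries that stood apart, lay below T-REX. The log2 fold changes were -0.14 ± 0.05 (SE) against light alone (unadjusted p = 0.0134, adjusted p = 0.287) and -0.14 ± 0.05 against probe alone (unadjusted p = 0.0132, adjusted p = 0.579, edgeR's quasi-likelihood test). At 3 h the value against light alone was -0.15 (unadjusted p = 0.0417). With the authors' 2 factors of unwanted variation as covariates, MAPK14 was called against light alone at 3 and 6 h and against DMSO at 3 h (smallest adjusted p = 0.0117, edgeR's quasi-likelihood test), under which 1.75% to 26.7% of all genes were called across the 9 comparisons.

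The JNK genes MAPK8 (ENSG00000107643, JNK1) and MAPK9 (ENSG00000050748, JNK2) were called in no comparison. MAPK8 had log2 fold changes of -0.13 to 0.03 under T-REX and MAPK9 of -0.07 to 0.08. MAPK8 means per group ran from 58.8 to 79.4 CPM and MAPK9 means from 70.7 to 86.1 CPM, with all 4 arms at 3 h at 76.6 to 79.4 CPM for MAPK8. MAPKAPK2 (ENSG00000162889), the gene for MK2, which p38 phosphorylates and which stabilises AU-rich mRNAs, had values of -0.04 to 0.09 (smallest adjusted p = 0.668, edgeR's quasi-likelihood test). Its means per group were 54.5 to 58.0 CPM at 3 h, 45.5 to 48.7 CPM at 6 h and 39.4 to 41.8 CPM at 12 h. Time points were not tested against each other, and the time of harvest and any difference in handling between times cannot be told apart.

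Over the 9 genes other than MAP2K6, 0 of 81 comparisons with T-REX were called by edgeR's quasi-likelihood test, by DESeq2 or by limma-trend, and 7 had an unadjusted p of at most 0.05. With the factors of unwanted variation as covariates the same test called 8 of the 81, in MAPK14 and MAP2K7 (3 each), MAP3K5 and MAP3K4, beside the 1.75% to 26.7% of all genes given above. The 95% intervals of these values were 0.10 to 0.62 wide to each side on the log2 scale. A value of -0.61, that of MAP2K6 against light alone at 12 h, lay outside all intervals of 8 of the 9 genes. The exception was MAP2K7, whose intervals reached -0.69 against light alone at 3 h and -0.73 against DMSO at 6 h. The value of -0.61 is the largest drop of MAP2K6. Its smallest called drop, -0.37 against DMSO at 6 h, also lay inside intervals of MAP2K3 and MAP3K5. The lowest bounds of these genes were -0.52 and -0.50.

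**Figure D4:**
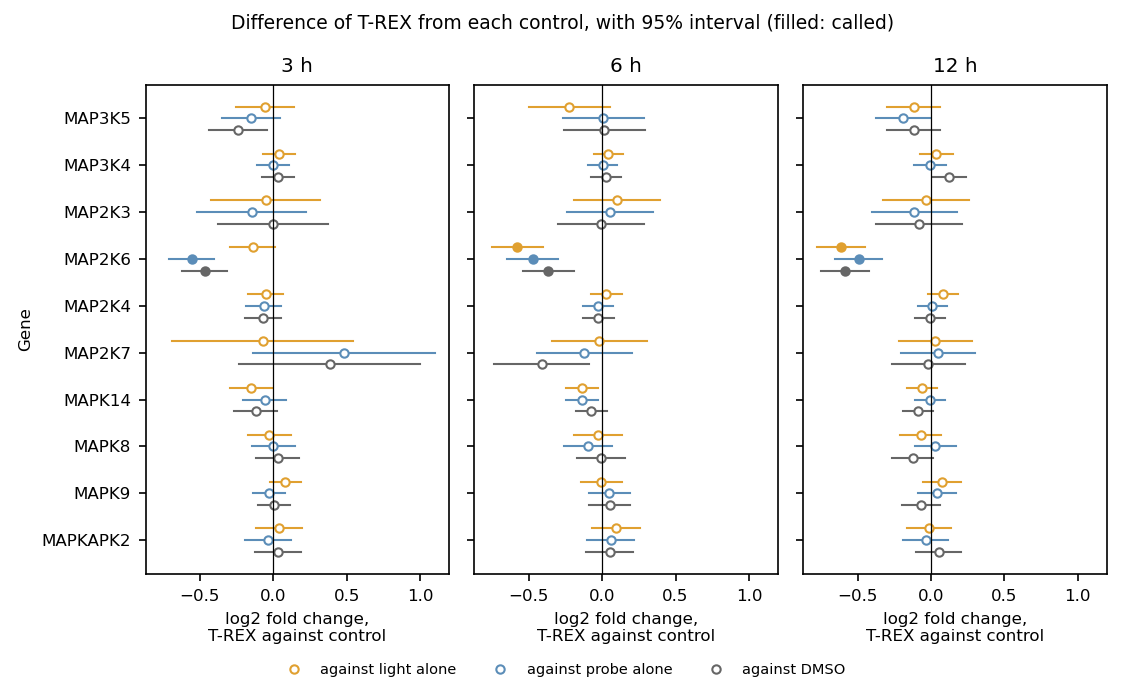
log2 fold change of T-REX against each control (x axis) with its 95% interval for the 10 genes (y axis) at 3, 6 and 12 h; filled points are called at an adjusted p of at most 0.05 and open points are not. Filled points occur only for MAP2K6 (-0.61 to -0.37), and the widest intervals are those of MAP2K7 at 3 h.

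Levels of different genes were compared per length, as CPM per kilobase of the principal transcript in GENCODE 29, over the 4 DMSO libraries at 3 h. MAPK14 was highest with a median of 36.5 CPM per kb, followed by MAP2K4 (31.6), MAPKAPK2 (25.1), MAPK9 (17.6), MAP3K4 (15.8), MAPK8 (14.1), MAP2K3 (6.90), MAP2K7 (4.28), MAP3K5 (2.92) and MAP2K6 (2.88). The ranges of MAPK9 and MAP3K4 overlapped, as did those of MAP3K5 and MAP2K6, and no other neighbours did. The principal transcript of MAP2K6 is 13400 bases long, so its place rests on how much of that length HEK293T cells use. With all exons of a gene joined, MAP2K4 (21.2 CPM per kb) was above MAPK14 (20.1) with overlapping ranges, MAP3K5 (2.87) was above MAP2K7 (2.80), also with overlap, and MAP2K6 had the lowest median (2.32).

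The genes whose levels were most like MAP2K6 were sought among 12428 genes with a mean of at least 100 counts, by Pearson's r over the 48 libraries after removing each gene's mean at the time point. They were FREM2 (r = 0.881), an extracellular matrix protein of the Fraser complex, SDC2 (0.852), a heparan sulfate proteoglycan, KAT6B (0.845), a histone acetyltransferase, PLOD2 (0.843), a collagen lysyl hydroxylase, and MXI1 (0.832), a MAX-binding repressor. These libraries share arms and depth, so r is a description. The difference between arms was left in r, so genes most like MAP2K6 tend to differ between arms as it does. Their calls follow in part from this choice and are not independent evidence. All genes were called at 0.109% to 10.9% in the same comparisons. Of the 9 comparisons with T-REX, PLOD2 was called in 5, FREM2, SDC2 and MXI1 in 4 each and KAT6B in 1. None of these 5 was called at 6 h, nor against light alone at 3 h. At 12 h, PLOD2 gave -0.79 ± 0.09 (SE) against DMSO (adjusted p = 5.83e-05, edgeR's quasi-likelihood test). Among the 10 genes, the r with MAP2K6 was 0.546 for MAP3K5, 0.389 for MAPK14 and between -0.262 and 0.249 for the other 7.

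Of 90 other genes of the MAP kinase pathways listed by role, 86 had a row (GADD45G, DUSP2, PTPN7 and LSP1 did not). Across the 9 comparisons, 11 of the 86 were called, each in 1. Against light alone none was called at any time, and against probe alone 1, at 3 h. Against DMSO, 1 rose and 2 fell at 3 h, 2 fell at 6 h, and 1 rose and 4 fell at 12 h. These are 3.49%, 2.33% and 5.81% of the 86, beside the shares of all genes in the same comparisons given above (5.99%, 0.415% and 10.9%). The median log2 fold change of the 86 against DMSO was 0.04, -0.08 and 0.02 at 3, 6 and 12 h, and the medians over all genes in these comparisons lay between -0.00185 and 0.0309.

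The 15 MAP3K genes, the 3 JNK genes, the 7 scaffolds, the 7 kinases activated by p38 and the 10 phosphatases tested, MAP3K5, MAP3K4, MAPK8, MAPK9 and MAPKAPK2 among them, held no call in any comparison with T-REX. Of the 4 p38 genes, MAPK13, for p38 delta, rose at 12 h against DMSO (0.63 ± 0.19 SE, adjusted p = 0.0309, edgeR's quasi-likelihood test), from 4.44, 2.60, 3.36 and 5.40 CPM with DMSO to 4.35, 7.48, 6.69 and 6.06 CPM under T-REX, with 1 T-REX library among the DMSO values. Of 9 genes that activate or bind MAP3Ks, TXN, the thioredoxin that holds ASK1, fell at 12 h against DMSO (-0.43 ± 0.10, adjusted p = 0.0118, edgeR's quasi-likelihood test). Its levels were 98.8 to 114.5 CPM in the 4 T-REX libraries and 118.5 to 164.9 CPM in the 4 DMSO libraries. Of 7 MK2 substrates, ZFP36L2, an mRNA decay factor, fell at 12 h against DMSO (-0.38, adjusted p = 0.0428, edgeR's quasi-likelihood test), and it was also called lower in probe alone than in DMSO (-0.52). DMSO library 3, which stood apart at 12 h, bore on these 3 genes: without it MAPK13 was at 0.56 (adjusted p = 0.0614), TXN at -0.36 (adjusted p = 0.0930) and ZFP36L2 at -0.18 (adjusted p = 0.213), and none was called (edgeR's quasi-likelihood test). It was the one library whose removal ended the call of TXN. ZFP36L2 kept its call in 3 of 16 fits that left out 1 library, and lost it with the replicate block and with limma-trend.

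Of the genes of the ERK branch, which is another MAP kinase cascade, MAP2K5, for MEK5, rose at 3 h (0.29 ± 0.08 SE), and MAP2K1, for MEK1, fell at 12 h (-0.22 ± 0.06), both against DMSO. Of 13 transcription factors that these kinases phosphorylate, ATF2 fell at 3 h (-0.20 ± 0.06) and JUND at 12 h (-0.66 ± 0.18), both against DMSO. The adjusted p of these 4 lay between 0.0234 and 0.0363 in edgeR's quasi-likelihood test. Mean JUND at 12 h was 15.4 CPM under T-REX, 16.4 CPM in light alone, 17.2 CPM in probe alone and 24.2 CPM in DMSO. Light alone and probe alone thus lay near T-REX. The DMSO mean was raised by libraries 1 and 3 (30.7 and 32.8 CPM), with libraries 2 and 4 at 17.97 and 15.33 CPM. Without DMSO library 3, JUND was at -0.47 and was not called (adjusted p = 0.1001, edgeR's quasi-likelihood test).

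Of 11 AP-1 and stress-induced transcripts, ATF3 rose at 3 h against probe alone (0.41 ± 0.08 SE, adjusted p = 0.0202), and light alone against probe alone gave 0.39 ± 0.08 (adjusted p = 0.0436, edgeR's quasi-likelihood test). ATF3 was at 113.8 to 140.5 CPM under T-REX, 109.5 to 136.7 CPM in light alone, 91.9 to 96.9 CPM in probe alone and 94.8 to 121.7 CPM in DMSO. JUNB, an AP-1 subunit, fell at 6 h against DMSO (-1.55 ± 0.28, adjusted p = 0.00935) and so did IER3, an immediate early gene (-1.03 ± 0.23, adjusted p = 0.0460, edgeR's quasi-likelihood test). JUNB was at 1.03, 0.99, 1.53 and 1.79 CPM under T-REX and at 5.32, 2.45, 5.41 and 2.52 CPM with DMSO, highest in DMSO libraries 1 and 3, which also had the highest MAP2K7. Mean JUNB at 6 h was 1.33 CPM under T-REX, 1.82 CPM in light alone, 1.51 CPM in probe alone and 3.93 CPM in DMSO. Light alone and probe alone thus lay nearer to T-REX than to DMSO, and DMSO was the arm that differed. For IER3 the means in the same order were 2.405, 2.821, 3.551 and 4.895 CPM. Without DMSO library 3, which stood apart at 6 h, JUNB was at -1.35 (adjusted p = 0.0479) and IER3 at -0.84, which was not called (adjusted p = 0.190, edgeR's quasi-likelihood test). IER3 kept its call in 6 of 16 fits that left out 1 library, and lost it with the replicate block and with limma-trend. At 3 h, JUNB was at 5.48 to 7.29 CPM in the 4 libraries that stood apart and at 3.11 CPM or less in the other 12. Of these 11 called genes, 10 lost their call without at least 1 library of the comparison or of the shared fit. Fitted with only the 2 arms compared, 8 of the 11 calls were lost, and without the 4 libraries that stood apart ATF2 and MAP2K5 were not called at 3 h.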

How the data were processed

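RNA of HEK293T cells (12 groups of 4 independent replicates) was sequenced from stranded libraries depleted of ribosomal RNA. The authors deposited raw read counts per gene, log2 CPM values and, as a score per library, 2 factors of unwanted variation (RUV). For the RNA-seq, the study lists cutadapt, the aligner TopHat and Cufflinks; which tool made the counts, and the genome build, are not given in the sources used here. Counts were fitted with edgeR 4.0.16 (TMM scaling, its filter on low counts, which removed 0 genes, and the quasi-likelihood test) in R 4.3.3 on the 16 libraries of a time point, and over all 48 for changes with time. Genes were called at a Benjamini-Hochberg adjusted p of at most 0.05. The alternatives were DESeq2 1.42.0, RLE scaling, no filter, a replicate block, RUV factors as covariates, only the 2 arms, limma-trend (limma 3.58.1) on the deposited log2 CPM, and leaving out each library. The fit was tested on simulated data. Named genes were the 10 members, the 5 genes most like MAP2K6 and called genes of the pathway lists. Gene lengths were those of GENCODE 29, and gene symbols came from a separate list of gene names. The members and lists were chosen with earlier results of these data known. Total counts of 23952455 to 37099535 per library limit the precision of the low transcripts most. A result for 1 gene of the pathway lists is not reported here, and the counts over the lists include it.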

Additional observations from a re-analysis of the deposited data

Results flagged for a closer look

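Among 120 groups of 4 libraries (10 genes in 12 groups), 10 held 1 library far from the other 3 by Dixon's test at the 95% level, and chance flags about 1 in 20. MAP2K3 was at 11.04 CPM in 1 T-REX library at 6 h against 14.7 to 15.2 CPM in the others. MAP2K4 was at 105.3 CPM in 1 light alone library at 6 h. MAPK14 was at 104.5 CPM in 1 DMSO library at 6 h and at 102.3 CPM in 1 T-REX library at 12 h. MAPKAPK2 was at 46.8 CPM in 1 T-REX library at 6 h. MAPK8 was at 88.8 CPM in 1 probe alone library and 68.4 CPM in 1 DMSO library at 3 h, and at 12 h at 54.95 CPM in 1 T-REX library and 57.5 CPM in 1 light alone library. MAPK9 was at 82.1 CPM in 1 probe alone library at 3 h. MAP2K6 and MAP2K7 held no such library.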

How the results depend on the processing

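MAP2K6 kept its direction in the 9 comparisons with T-REX under every alternative. Its call against DMSO at 6 h was lost with RLE scaling (-0.37, adjusted p = 0.0526, edgeR) and with limma-trend (-0.37, adjusted p = 0.0501), which left 0 of the 10 genes called there. With 1 library left out, MAP2K6 ranged from -0.51 to -0.42 against probe alone and from -0.41 to -0.32 against DMSO at 6 h, and 0 to 1 genes were called in these comparisons and in light alone against probe alone at 3 h. The log2 ratio of MAP2K6 to MAP2K3 against light alone at 3 h ranged from -0.27 to 0.15, and turned positive without T-REX library 3 (0.15), T-REX library 4 (0.06), light alone library 1 (0.00) or light alone library 4 (0.04). With RUV factors as covariates, the T-REX calls at 3 h numbered 1 for the light alone control, 2 for probe alone and 4 for DMSO. Of all genes, 11.8%, 17.4% and 20.8% were called there. At 6 h there were 2 against light alone and 2 against DMSO, beside 8.19% and 7.14% of all genes. At 12 h there were 2 against DMSO, beside 26.7% of all genes. Among controls the same fit called 2 for light alone against DMSO at 3 and at 6 h, 2 for light alone against probe alone at 3 h and 2 for probe alone against DMSO at 12 h, and it called 1 for the change from 3 to 6 h. DESeq2 called 1, MAP2K6, for light alone against DMSO at 3 h. The shares of all genes in these control and time comparisons are not given here for RUV factors or DESeq2. Without the 4 libraries that stood apart at 3 h, a choice made after the data were seen, 2 were called against probe alone, 2 against DMSO and 0 for light alone against probe alone, beside 3.21% and 6.19% of all genes in the first and the second. The cause of these changes was not tested. Over all genes, the share called in a comparison was 0.427% to 14.1% with DESeq2, 1.75% to 26.7% with RUV factors and 0.0204% to 7.67% with only the 2 arms, beside 0.109% to 10.9%. Replicate numbers were not taken as pairs, under a strict rule that every same-numbered pair correlate above 0.1. Of 24 such pairs, 12, 9 and 4 did at 3, 6 and 12 h, beside 25, 17 and 14 of 72 pairs with different numbers. The share was thus higher with the same number at 3 and 6 h and lower at 12 h. At these times 5, 9 and 4 of 16 libraries correlated best with their own number. These counts do not decide whether the numbers mark pairs. With the replicate block MAP2K6 was -0.38 against DMSO at 6 h (adjusted p = 0.0360, edgeR), and the block changed no call among the 10 genes, but ended those of IER3 and ZFP36L2. The wider intervals of MAP2K3, MAP3K5 and MAP2K7 limit what their values can show, and the source of that width was not tested.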
